A study of Mus musculus with 38 samples.

Results

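Proteasome subunit genes were examined in hypothalamic RNA of 38 female FVB/N mice, 1 Affymetrix Mouse Gene ST array per mouse. The set held the 38 genes that encode the alpha ring (7 genes), the beta ring (7), the base ATPases (6), the base subunits without ATPase activity (3), the lid (8), the assembly chaperones of the base (3) and the activators (4). All 38 listed genes had a probe set assigned to 1 symbol, out of 19937 genes with such a probe set, and where a gene had several, the one with the highest mean level over the 38 arrays stood for it. In the adeno-associated virus (AAV) experiment, wild-type mice received rAAV5 in the hypothalamus on both sides at 8 weeks of age, carrying an N-terminal huntingtin fragment of 853 amino acids with 18 (18Q, n = 5) or 79 (79Q, n = 8) CAG repeats under the neuronal Synapsin promoter, and were compared with uninjected wild-type mice (WT, n = 5) at 12 weeks of age. No group received a vector without huntingtin, so that the huntingtin fragment, the vector and the surgery cannot be told apart in the comparisons with WT. In the transgenic experiment, BACHD mice, which carry full-length human huntingtin with 97 CAG repeats in all tissues, were compared with WT mice at 2 months (6 BACHD, 6 WT) and at 10 months of age (5 BACHD, 3 WT). The 79Q group carries the expanded repeat and the 18Q group the wild-type repeat, and both groups were injected.

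The proteasome is the protease that degrades proteins marked with ubiquitin. Its core is a barrel in which alpha rings close the ends and beta rings hold the proteolytic sites, and a regulatory particle of base and lid recognises, unfolds and feeds in the substrate. Interferon replaces the catalytic beta subunits with inducible ones and raises the PA28 activator, which together change the peptides made for MHC class I, and the proteasome is studied in Huntington's disease because mutant huntingtin accumulates in ubiquitin-containing inclusions.

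The values are log2 levels after robust multi-array averaging (RMA), and each log2 fold change, log2(FC), comes from limma with its standard error (SE). A gene was called changed at a Benjamini-Hochberg adjusted p under 0.05 over all 34760 probe sets. The AAV arrays, the 2 months arrays and the 10 months arrays were taken as normalized separately. This was inferred from the values, as the methods do not state it. Levels are therefore compared only within each of these sets. Arrays of the same set correlated with each other at 0.985 or more. The mean level of the 6 measured pituitary marker genes reached 10.37 in 1 WT mouse and 9.23 in 1 BACHD mouse at 2 months, where the group medians were 7.37 and 7.59, and in the AAV arrays it was 6.57 to 7.14 in WT, 7.01 to 8.504 in 18Q and 6.67 to 8.23 in 79Q. The mean level of the 7 thalamic marker genes, which marks neighbouring tissue, ranged from 8.79 to 10.61 over the 12 arrays at 2 months but from 8.88 to 9.53 over the 18 AAV arrays. At 10 months it ranged from 9.18 to 10.14 in BACHD and from 8.89 to 9.62 in WT. All 7 thalamic genes lay above zero in BACHD vs. WT at 10 months (median log2(FC) 0.24, 0 called). The mean level of the 8 measured hypothalamic genes lay between 9.85 and 10.82 in all 7 groups.

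Stretches of promoter sequence are shown for Psme1, Psme2 and Psmb8, which lay higher in the injected mice, and for constitutive genes with motif letters. They come from the RefSeq windows of 250 bases before to 50 bases after each gene start (GRCm38.p6), which were found for 32 of the 38 genes. The genes Psmb1, Psmb2, Psmb7, Psmc3, Psmd3 and Psmd7 had no window. Each line runs 5′ to 3′ along the strand of the gene, and capitals mark the letters of a motif: the interferon-stimulated response element (ISRE, TTTC and TTTC with NN between them), the gamma-activated sequence (GAS, TTCNNNGAA) or the antioxidant response element, to which NRF1 and NRF2 bind (ARE, TGACNNNGC).
Psme1, ISRE, chr14:55578493-55578522, plus strand: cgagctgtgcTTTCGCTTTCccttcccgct
Psmb3, ISRE, chr11:97703261-97703290, plus strand: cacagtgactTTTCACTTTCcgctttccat
Psmb8, GAS, chr17:34198088-34198116, plus strand: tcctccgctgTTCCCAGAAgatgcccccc
Psmb5, ARE, chr14:54618024-54618052, minus strand: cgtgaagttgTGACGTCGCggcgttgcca
Psmb6, ARE, chr11:70525338-70525366, plus strand: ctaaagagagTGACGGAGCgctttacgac
Psme2, no match to these motifs, the 150 bases before the start, chr14:55591102-55591251, minus strand: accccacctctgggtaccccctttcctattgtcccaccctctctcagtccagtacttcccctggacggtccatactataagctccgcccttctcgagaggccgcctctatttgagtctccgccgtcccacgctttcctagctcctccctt

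Both strands were searched. The ISRE letters were in the windows of 4 of the 32 genes (Psmb3, Psmd4, Psmd9 and Psme1) and of 3.99% of all 27025 genes with a window. The ARE letters were in 6 (Psmb5, Psmb6, Psmc6, Psmd12, Psmd9 and Psme4) and in 14.0% of all genes. The GAS letters were in 1 (Psmd2) and in 9.55%, and the letters CCAAT, to which NF-Y binds, in 12 and in 41.1%. Of the inducible subunits, which are not among the 32 genes, only Psmb8 was found with the GAS letters and only Psmb9 with CCAAT. None of them was found with the ISRE or ARE letters. No stretch is shown for Psmb9, which also lay higher in the injected mice. In Psme1 the ISRE letters lie within the 50 bases after the start, and in Psmb3 they lie among the 250 bases before it. A match describes the letters of the window and not a binding site.

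The first comparison asked how the proteasome genes differed between mice overexpressing the wild-type huntingtin fragment and uninjected mice. In 18Q vs. WT, 1 of the 38 genes passed the threshold, Psme2, which encodes the beta subunit of the PA28 activator. Over all genes 2.47% were called higher and 0.431% lower. The levels of Psme2 were 9.72, 9.45, 9.31, 9.77 and 9.23 in the 18Q mice and 8.98, 9.01, 8.91, 9.06 and 8.92 in the WT mice. Every 18Q mouse lay above every WT mouse. The log2(FC) was 0.52 (SE 0.105, adjusted p = 0.00957), and the adjusted p lay between 0.00274 and 0.0363 when each 18Q or WT mouse was left out in turn.

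Psme1, the alpha subunit of the same activator, followed with a log2(FC) of 0.20 (SE 0.0608, adjusted p = 0.117). Its levels were 9.80, 9.55, 9.49, 9.77 and 9.63 in 18Q and 9.42, 9.49, 9.47, 9.45 and 9.42 in WT. The groups did not overlap, as for 3.39% of all genes in this direction, although the lowest 18Q mouse and the highest WT mouse differed by less than the second decimal shows. The other activators were Psme3, the nuclear PA28 gamma, with a log2(FC) of -0.03 (SE 0.0444), and Psme4, which encodes PA200, with 0.05 (SE 0.0425).

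In 79Q vs. WT none of the 38 genes passed the threshold in limma, while 2.02% of all genes were called higher and 0.722% lower. Psme2 had a log2(FC) of 0.32 (SE 0.0948, adjusted p = 0.0990) and Psme1 of 0.17 (SE 0.0548, adjusted p = 0.133). The levels of Psme2 in the 8 79Q mice ran from 9.07 over a median of 9.38 to 9.53, and those of Psme1 from 9.52 over a median of 9.61 to 9.79. All 8 mice lay above the highest WT mouse for both genes, as for 2.41% of all genes. The adjusted p of Psme2 fell to 0.0467 when only the 79Q and WT arrays were fitted, and the value for Psme2 in 79Q thus lay on either side of the threshold depending on the arrays in the fit. The comparisons of 18Q and of 79Q share the same 5 WT mice.

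The rise of Psme2 concerns a gene with a near-identical copy, Psme2b. A second probe set, which the platform table assigns to both Psme2b and Psme2 and which therefore does not belong to the set, was higher by 0.76 in 18Q (adjusted p = 0.000511) and by 0.53 in 79Q (adjusted p = 0.00571). Signal from the copies cannot be told apart there, and whether the probe set of Psme2 itself also reads Psme2b was not tested.

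**Figure D1:**
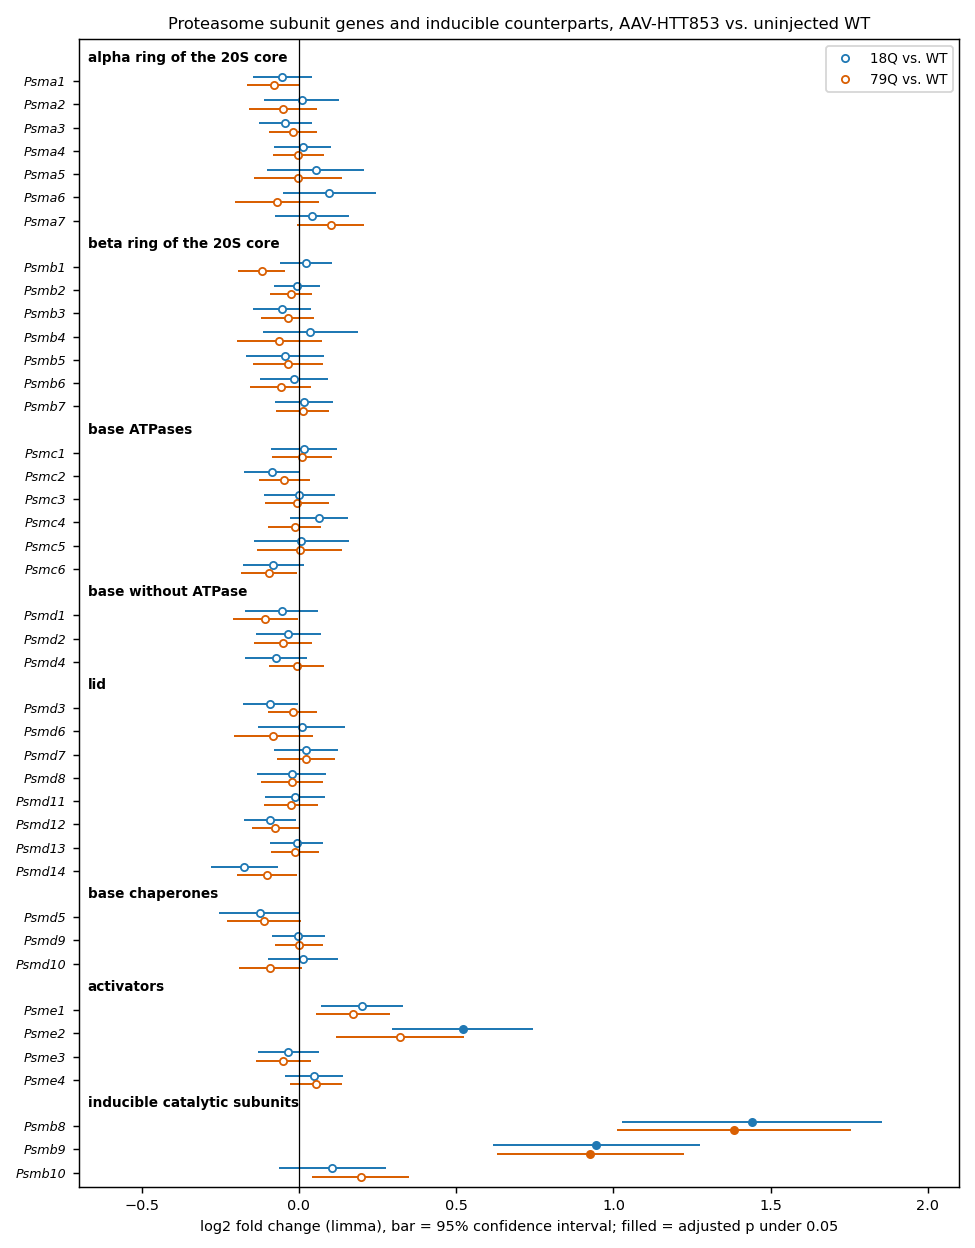
Log2 fold change (x-axis) of the 38 proteasome subunit genes, ordered by structural group, and of the 3 inducible catalytic subunits in 18Q vs. WT (blue) and 79Q vs. WT (orange); points are limma estimates, bars 95% confidence intervals, and filled points have an adjusted p under 0.05. Psme2 at 0.52 in 18Q is the only filled point among the 38 genes, whereas Psmb8 and Psmb9 are filled in both comparisons.

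The core of the proteasome showed no called gene in either comparison. Of the 7 alpha ring genes, whose products form the gate of the barrel, 5 lay above zero in 18Q, with log2(FC) from -0.05 (Psma1) to 0.10 (Psma6) and a median of 0.01. In 79Q, 6 of them lay below zero and Psma7 was highest at 0.10 (SE 0.0487, adjusted p = 0.370). Psma2, Psma3, Psma4 and Psma5 stayed within 0.06 of zero in both comparisons.

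The 7 beta ring genes had log2(FC) from -0.05 (Psmb3) to 0.04 (Psmb4) in 18Q, with a median of -0.01, and from -0.12 (Psmb1) to 0.01 (Psmb7) in 79Q, with a median of -0.04. The 3 catalytic subunits are encoded by Psmb5 (chymotrypsin-like), Psmb6 (caspase-like) and Psmb7 (trypsin-like). The levels of Psmb5 were 11.26, 11.01, 11.20, 11.37 and 11.41 in 18Q and 11.25, 11.32, 11.31, 11.32 and 11.28 in WT, and the log2(FC) was -0.04 (SE 0.0567). The 18Q mice lay on both sides of the WT mice. Psmb6 had a log2(FC) of -0.01 (SE 0.0497) in 18Q and -0.06 (SE 0.0448) in 79Q, and Psmb7 of 0.01 (SE 0.0424) and 0.01 (SE 0.0382). The 95% confidence intervals of these 3 genes reached from -0.16 to 0.10 in 18Q and from -0.15 to 0.09 in 79Q. Larger changes of these transcripts in the whole tissue lay outside these unadjusted intervals. Changes within neurons alone were not measured.

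Psmb1, a beta subunit without a catalytic site, had the lowest unadjusted p among the genes below zero in 79Q vs. WT (log2(FC) -0.12, SE 0.0338, adjusted p = 0.0883). Its levels in WT were 10.44, 10.44, 10.42, 10.49 and 10.54, and those of the 79Q mice ran from 10.29 over a median of 10.34 to 10.41. All 79Q mice lay below the lowest WT mouse, as for 1.35% of all genes, and the 18Q mice (10.45, 10.43, 10.49, 10.50 and 10.57) overlapped with the WT mice. The call of Psmb1 in 79Q was made with a variance trend and robust moderation (adjusted p = 0.0489) and when probe sets of low level were left out (adjusted p = 0.0444).

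The 6 ATPases of the base, which unfold the substrate, had log2(FC) from -0.09 (Psmc2) to 0.06 (Psmc4) in 18Q and from -0.09 (Psmc6) to 0.01 (Psmc1) in 79Q, and no call. Psmc4 had the smallest p above zero in 18Q after the PA28 genes (SE 0.0427, adjusted p = 0.5996), and Psmc6 was among the 3 smallest below zero in 79Q (SE 0.0406, adjusted p = 0.294). Psmc3 and Psmc5 stayed within 0.01 of zero in both. The scaffolds of the base, Psmd1 and Psmd2, and the ubiquitin receptor Psmd4 were below zero in both comparisons, from -0.07 to -0.03 in 18Q and from -0.11 to -0.01 in 79Q, none past the threshold.

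The lid removes ubiquitin chains through Psmd14, the deubiquitinase that works together with Psmd7. The log2(FC) of Psmd14 was -0.17 in 18Q (SE 0.0487, adjusted p = 0.0829). It was -0.10 in 79Q (SE 0.0439, adjusted p = 0.301). The levels were 10.61, 10.49, 10.43, 10.54 and 10.71 in 18Q, 10.65, 10.71, 10.73, 10.79 and 10.76 in WT, and from 10.55 over a median of 10.65 to 10.67 in 79Q. In 18Q, 4 of the 5 mice lay below every WT mouse and replicate 6 lay among them. Without that mouse the log2(FC) was -0.21 (adjusted p = 0.0101) and Psmd14 was called. It was also called when probe sets of low level were left out (adjusted p = 0.0447) and when the probe sets of each gene were averaged (adjusted p = 0.0467).

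The structural lid subunits Psmd12 and Psmd3 had a log2(FC) of -0.09 each in 18Q (SE 0.0374, adjusted p = 0.295, and SE 0.0397, adjusted p = 0.336), and of -0.08 and -0.02 in 79Q. For Psmd3 all 18Q mice lay below all WT mice, as for 2.02% of all genes. For Psmd6, Psmd7, Psmd8, Psmd11 and Psmd13 the log2(FC) lay between -0.02 and 0.02 in 18Q and between -0.08 and 0.02 in 79Q. Of the chaperones that assemble the base, Psmd5 had -0.12 (SE 0.06) in 18Q and -0.11 (SE 0.0541) in 79Q, Psmd9 0.00 in both, and Psmd10 (gankyrin) 0.01 and -0.09.

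Over the whole set, 2 genes above zero (Psme1 and Psme2) and 3 below zero (Psmd3, Psmd12 and Psmd14) had an unadjusted limma p under 0.05 in 18Q vs. WT. Over all genes these shares were 7.33% and 8.31%, so that 2 and 3 of 38 were no more than the background. In 79Q the counts were 2 and 5 (Psmb1, Psmc6, Psmd1, Psmd12 and Psmd14) beside 6.57% and 10.5%. The median log2(FC) of the 38 genes was -0.003 in 18Q and -0.03 in 79Q, and that of all named genes -0.01 and -0.02. In 79Q, 29 of the 38 genes lay below zero, against 11990 of all 19937 genes. Half-widths of the 95% confidence interval had a median of 0.10 over the 38 genes in 18Q. These intervals are not adjusted over the probe sets, and Psmd14 at -0.17 and Psme1 at 0.20 were not called.

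**Figure D2:**
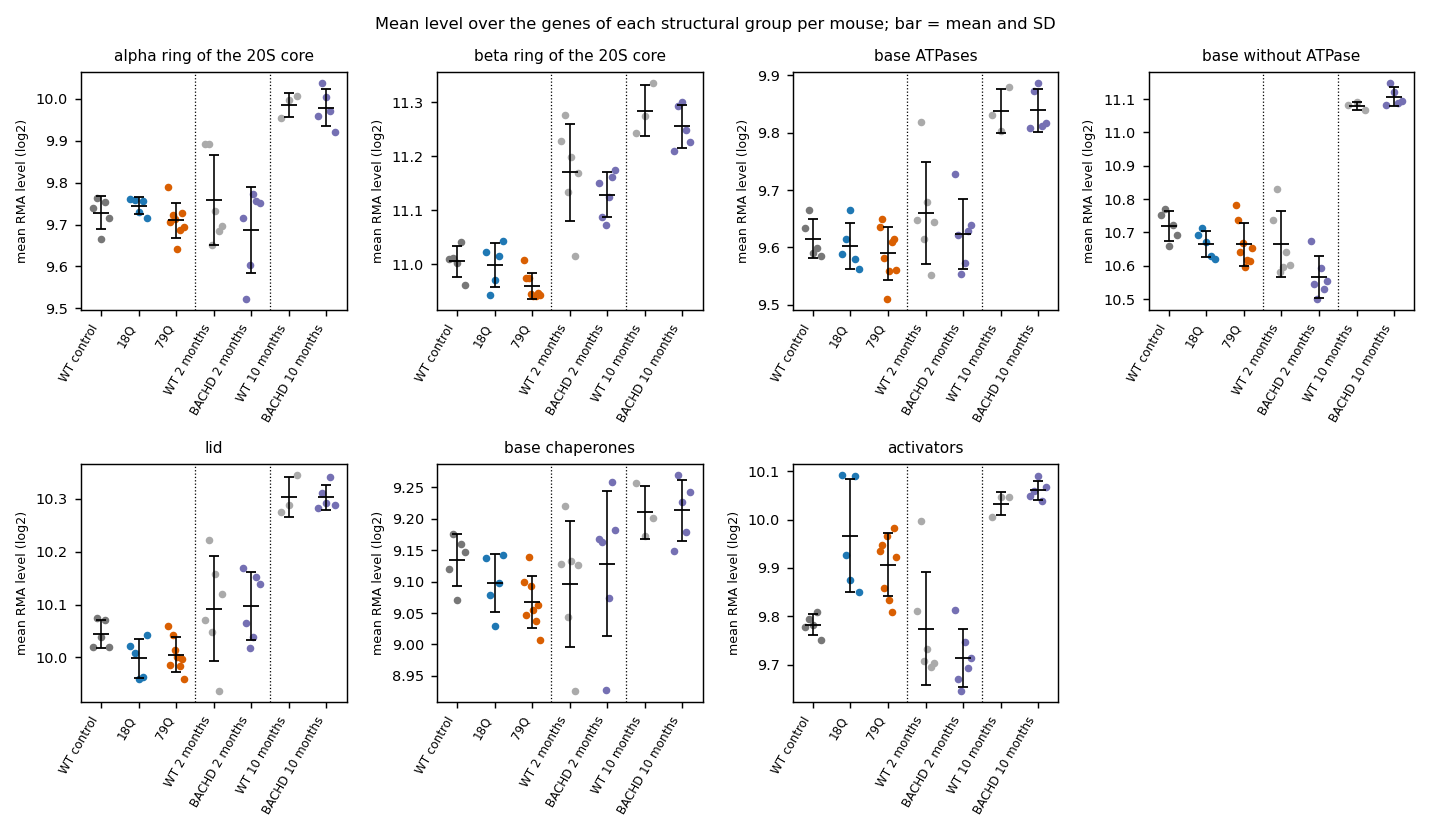
Mean RMA level over the genes of each structural group (y-axis, log2) in each mouse of the 7 groups (x-axis); bars are the mean and SD of a group, and dotted lines separate the sets of arrays taken as normalized apart. The activators of all 5 18Q mice sit above the WT control mice, those of the 79Q mice do so except for the lowest, at 9.81, and in the other 6 structural groups the injected mice overlap with the WT control mice.

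Of the 3 interferon-inducible counterparts of the catalytic subunits, Psmb8 and Psmb9 rose in both comparisons, and Psmb10 passed the threshold in neither. Psmb8, which takes the place of Psmb5, was at 7.95, 7.60, 7.84, 7.97 and 7.08 in 18Q and at 6.501, 6.01, 6.19, 6.41 and 6.13 in WT, and ran from 7.17 over a median of 7.58 to 8.41 in 79Q. Every injected mouse lay above every WT mouse. The log2(FC) of Psmb8 was 1.44 (SE 0.195, adjusted p = 0.000277) in 18Q and 1.38 (adjusted p = 0.000156) in 79Q.

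Psmb9, which replaces Psmb6, also rose in both comparisons, with a log2(FC) of 0.95 in 18Q (SE 0.155, adjusted p = 0.00169) and 0.93 in 79Q (adjusted p = 0.000839). Its levels were 8.94, 8.72, 9.004, 9.26 and 8.42 in 18Q, 8.06, 7.71, 8.08, 7.92 and 7.85 in WT, and from 8.41 over a median of 8.81 to 9.31 in 79Q, without overlap between injected and WT mice. Psmb10, which replaces Psmb7, had a log2(FC) of 0.11 (SE 0.0804, adjusted p = 0.660) and 0.20 (SE 0.0717, adjusted p = 0.1998), and its groups overlapped. The subunits restricted to testis and thymus, Psma8 and Psmb11, had log2(FC) between -0.09 and 0.11.

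**Figure D3:**
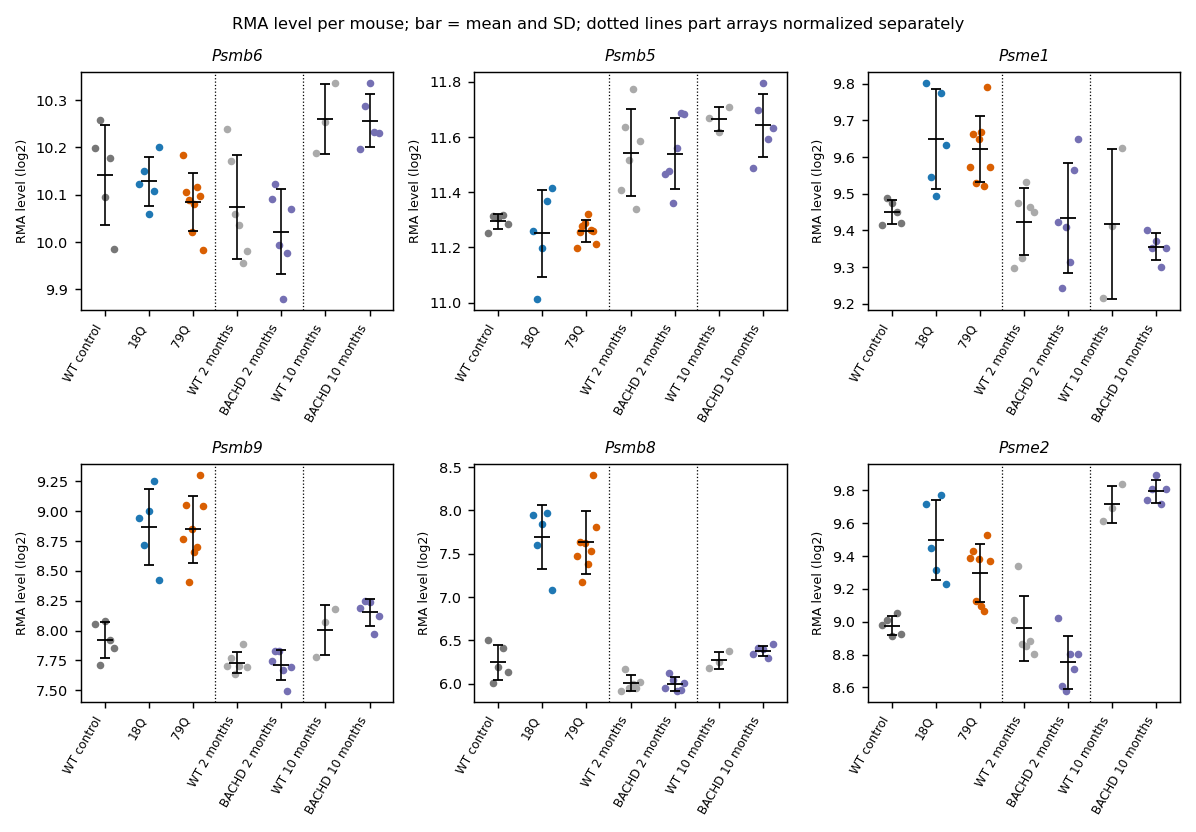
RMA level (y-axis, log2) of the constitutive catalytic subunits Psmb5 and Psmb6, the PA28 genes Psme1 and Psme2 and the inducible subunits Psmb8 and Psmb9 in each mouse of the 7 groups (x-axis); bars are mean and SD, and the axes differ between panels. The 13 injected mice lie above the 5 WT control mice for Psme1, Psme2, Psmb8 and Psmb9, and overlap with them for Psmb5 and Psmb6.

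Genes that surround the proteasome were taken from lists of its assembly factors, bound proteins, transcription factors and ubiquitin pathway. None of the 5 core assembly factors was called, with Psmg4 at 0.07 and 0.08 and Pomp, the maturation factor, at 0.06 and 0.07 in 18Q and 79Q. None of the 6 measured proteasome-bound proteins was called. The deubiquitinase Usp14 had the smallest p of them in 79Q (log2(FC) -0.13, SE 0.0395, adjusted p = 0.112), and the ubiquitin ligase Ube3c in 18Q (-0.07, SE 0.0336, adjusted p = 0.455). None of the 8 measured genes of ubiquitin activation and delivery was called, among them the shuttle factor Ubqln2 (-0.10, adjusted p = 0.320, and -0.09, adjusted p = 0.246).

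Of the 3 measured regulators of proteasome gene transcription, Nfe2l2, which encodes the oxidative stress factor NRF2, rose in both comparisons. The log2(FC) was 0.48 (SE 0.0933, adjusted p = 0.00658) in 18Q. In 79Q it was 0.35 (SE 0.0841, adjusted p = 0.0354). In 79Q its adjusted p was above 0.05, at 0.0537 to 0.102, when any 1 WT mouse or any 1 of the 79Q replicates 1, 5, 6, 7 and 8 was left out. Nfe2l1, which encodes NRF1, the factor that restores proteasome transcription after inhibition, had a log2(FC) of -0.07 (SE 0.0322, adjusted p = 0.415) and -0.08 (SE 0.0291, adjusted p = 0.231). Ngly1, which activates NRF1, had -0.11 and -0.03.

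The genes that carry proteasome products to the cell surface moved with the inducible subunits. In the MHC class I peptide supply list 5 of 7 measured genes were called higher in both comparisons. The peptide transporter genes Tap1 and Tap2 rose by 1.56 (adjusted p = 0.000275) and 0.79 (adjusted p = 0.000416) in 18Q, B2m, the light chain of MHC class I, by 1.501 (adjusted p = 1.1e-07) and Tapbp by 0.63 (adjusted p = 0.000743).

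Markers of immune cells and the interferon response moved in the same mice. All 8 measured interferon response genes were called higher in 18Q and in 79Q, and their mean level was 7.28 to 7.32 in WT, 9.08 to 10.16 in 18Q and 9.01 to 10.06 in 79Q. Microglia and macrophage markers were called higher for 5 of 7 genes in both comparisons, with a mean level of 8.19 to 8.29 in WT, 8.63 to 9.16 in 18Q and 8.60 to 9.32 in 79Q. T cell markers were called higher for 3 of 5 genes and B and plasma cell markers for 1 of 4, Jchain. Their mean levels were 6.08 to 6.24 and 5.58 to 5.79 in WT, 6.53 to 7.19 and 6.73 to 7.71 in 18Q, and 6.54 to 7.13 and 6.005 to 7.65 in 79Q. The part of these cells in the levels of Psme1, Psme2, Psmb8 and Psmb9 was not tested, and in bulk tissue more cells of a type and more RNA per cell cannot be told apart. Neuron markers lay below zero for 6 of 6 genes in 18Q (median log2(FC) -0.10, 1 called lower) and for 5 of 6 in 79Q (median -0.07, 0 called). The mean level of the neuron markers was 11.865 to 11.967 in WT, 11.755 to 11.831 in 18Q and 11.786 to 11.907 in 79Q. All 18Q mice thus lay below all WT mice, while the 79Q mice overlapped with them. The 8 hypothalamic markers lay below zero in both comparisons, with a median of -0.18 in 18Q (0 called) and -0.44 in 79Q (1 called lower). Their mean level was 10.64 to 10.78 in WT, 9.85 to 10.82 in 18Q and 9.95 to 10.54 in 79Q, so that all 79Q mice lay below all WT mice. Of the 5 astrocyte markers, 2 were called higher in 18Q and 0 in 79Q, and their mean level was 10.64 to 10.77, 10.80 to 11.14 and 10.75 to 11.01 in WT, 18Q and 79Q. The part of these shifts in the subunit levels was not tested.

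Among the 13 injected mice, each value taken as the deviation from its group mean, Psme2 followed the mean of the interferon response genes (Pearson's r = 0.894, permutation p = 0.00013, adjusted over 5 genes 0.000325; Spearman's rho = 0.885, permutation p = 0.00038; r = 0.879 without the 2 mice farthest from the median). Psmb8 (r = 0.926, rho = 0.940, r = 0.849 without those 2 mice) and Psmb9 (r = 0.885, rho = 0.896, r = 0.787) did so as well, with adjusted permutation p of 0.000325 and 0.000733 for r. Psme1 had r = 0.680 (adjusted permutation p = 0.0266) and rho = 0.560 (adjusted permutation p = 0.0810), and r = 0.681 without the 2 farthest mice. Psmb10 had r = 0.460 and rho = 0.319 (adjusted permutation p = 0.122 and 0.305), and r = 0.214 without those mice. The other 36 genes of the set had r from -0.56 (Psmd3) to 0.56 (Psme4) with a median of -0.02, given as a description. The 3 named genes whose group-centred levels were most like those of Psme2 over the 18 AAV arrays were Apaf1 (r = 0.949), Lgals3bp (r = 0.898) and Oasl2 (r = 0.897), which is itself on the interferon response list.

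**Figure D4:**
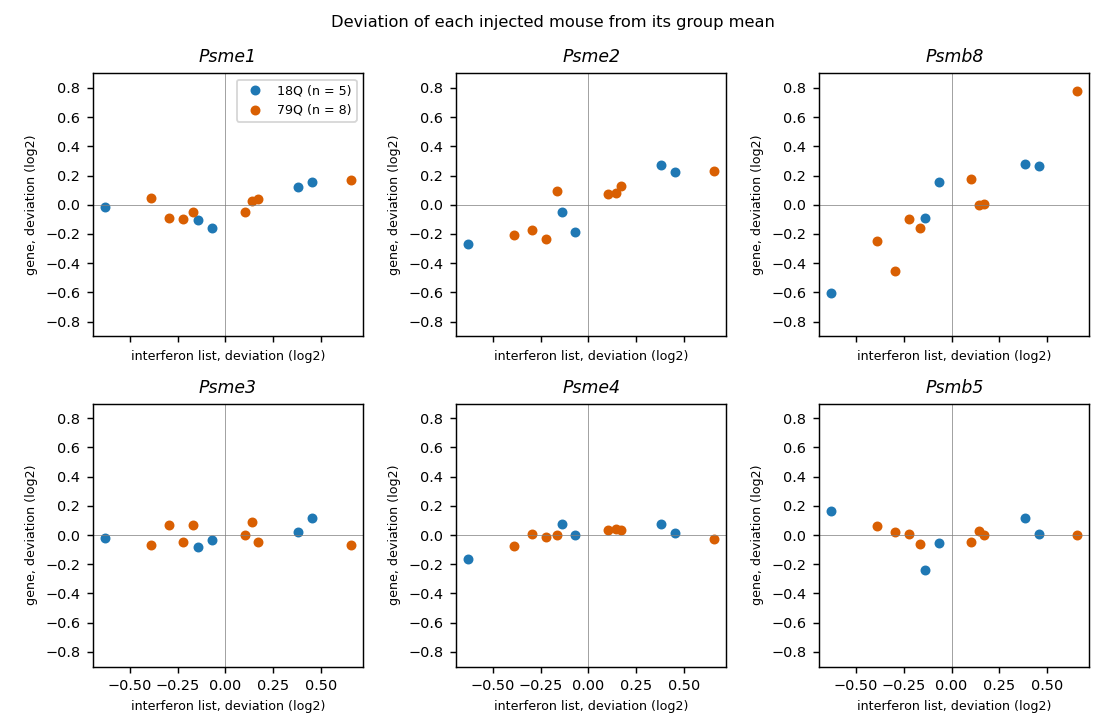
Deviation of each of the 13 injected mice from its group mean, for the mean of the interferon response genes (x-axis, log2) and for 6 genes (y-axes, log2), in 18Q (blue, n = 5) and 79Q (orange, n = 8). Psme2 and Psmb8 rise along the x-axis (r = 0.894 and 0.926), Psme1 and Psme4 do so less closely (r = 0.680 and 0.56), and the largest deviations are 0.78 for Psmb8, 0.27 for Psme2 and 0.24 for Psmb5.

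The comparison of 79Q with 18Q asks for an effect of the repeat length among injected mice. None of the 38 genes passed the threshold in limma, and 0% of all genes did. Of the 38 genes 0 above zero and 4 below zero had an unadjusted limma p under 0.05, against 1.32% and 2.57% of all genes. These were Psmb1 (log2(FC) -0.14, SE 0.0338), Psma6 (-0.17, SE 0.0618), Psmd10 (-0.11, SE 0.0463) and Psme2 (-0.20, SE 0.0948), each with an adjusted p of 1. For Psmb1 all 79Q mice (10.29 to 10.41) lay below all 18Q mice (10.43 to 10.57), as for 0.0602% of all genes (0 of the 38 genes were higher without overlap, against 0.0451%), and for Psma6 (10.51 to 10.85 and 10.70 to 10.94) the groups overlapped. Above zero, the smallest p belonged to Psmd3 (0.07), Psmd14 (0.07) and Psmd4 (0.07). The median log2(FC) was -0.01 for the 38 genes and -0.01 for all genes. Psmb8, Psmb9 and Psmb10 had log2(FC) of -0.06, -0.02 and 0.09, with 95% confidence intervals from -0.43 to 0.31 over the 3 genes. All 8 measured interferon response genes lay below zero in 79Q vs. 18Q, with a median log2(FC) of -0.35 and 0 called. The 6 measured pituitary markers also lay below zero (median -0.31, 0 called). The part of these differences in the level of Psme2 was not tested.

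BACHD mice were compared with WT mice at each age to ask about a full-length mutant huntingtin expressed throughout life. At 2 months none of the 38 genes passed the threshold in limma, and 0% of all genes did. At an unadjusted limma p under 0.05 there were 0 of the 38 genes above zero and 2 below zero, against 0.632% and 2.21% of all genes. Psmb7 had a log2(FC) of -0.17 (SE 0.0770, adjusted p = 0.939) and Psmd4 of -0.12 (SE 0.0562, adjusted p = 0.939). Psmb7 ran from 10.06 over a median of 10.10 to 10.34 in BACHD and from 10.11 over 10.34 to 10.50 in WT, with overlap. Psmd4 ran from 9.43 over 9.54 to 9.576 in BACHD and from 9.577 over 9.63 to 9.84 in WT. The groups did not overlap, as for 0.0752% of all genes, although the highest BACHD and the lowest WT mouse differed only in the third decimal. Of the 38 genes 0 were higher without overlap, against 0.0201%.

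Of the 38 genes 28 lay below zero at 2 months, against 12872 of all 19937 genes, and the median log2(FC) was -0.04 beside -0.03. With each array centred on its median, 16 of the 38 genes and 7593 of all genes lay below zero, and the medians were 0.01 and 0.02. The 7 alpha ring genes lay below zero (-0.15 to -0.001) on the deposited scale and 4 of them did so after centring (-0.10 to 0.05), so that their direction depends on the scaling. The lid genes lay from -0.06 to 0.12. Psmc4 had -0.16 (adjusted p = 0.939). The smallest p above zero belonged to the chaperone Psmd5 (0.16), the ATPase Psmc6 (0.14) and the activator Psme3 (0.09), each with an adjusted p of 0.939. Psme2 had -0.21 (SE 0.0998, adjusted p = 0.939) with overlapping groups, from 8.58 over 8.76 to 9.02 in BACHD and from 8.81 over 8.88 to 9.34 in WT, and Psme1 had 0.01. Psmb8, Psmb9 and Psmb10 had -0.01, -0.02 and 0.004. The interferon response list, which the injected mice showed raised, lay between 7.02 and 7.26 in its mean level over the BACHD mice and between 7.06 and 7.25 over the WT mice at this age.

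At 10 months none of the 38 genes passed the threshold or had an unadjusted limma p under 0.05, against 0% of all genes past the threshold and 2.39% above and 1.55% below zero at the unadjusted p. The smallest p below zero belonged to Psmb7, with a log2(FC) of -0.11 (SE 0.0539, adjusted p = 0.997). Its levels in BACHD were 10.03, 10.23, 10.17, 10.22 and 10.13, and those in WT 10.24, 10.28 and 10.29, so that the groups did not overlap. They also did not overlap for the base scaffolds Psmd1 and Psmd2, which were higher in BACHD by 0.06 and 0.04. Such groups were found for 2.19% of all genes in the higher and 1.63% in the lower direction, with 5 mice against 3. Psmb7 was followed by Psmd10 (-0.12) and Psma1 (-0.07), and above zero by Psmd1 (0.06), Psmd12 (0.06) and Psma2 (0.06). Psme2 had 0.08 (SE 0.0636) and Psme1 -0.06 (SE 0.0831), and Psmb8, Psmb9 and Psmb10 had 0.11, 0.15 and -0.06 (adjusted p = 0.997 each). Beside Psmb8 and Psmb9, all 8 measured interferon response genes lay above zero at 10 months, 3 of them with an unadjusted limma p under 0.05 and 0 past the threshold. Their mean level was 7.46 to 7.73 in BACHD and 7.29 to 7.502 in WT, with overlap. The 7 measured genes of MHC class I peptide supply also lay above zero, with 0 called and a mean level of 8.78 to 8.88 in BACHD and 8.69 to 8.83 in WT. All 3 measured regulators of proteasome gene transcription lay above zero, 1 with an unadjusted limma p under 0.05 and 0 called. Nfe2l2 was at 9.725 to 9.89 in BACHD and 9.63 to 9.683 in WT, without overlap, as for 2.19% of all genes. Of the 5 core assembly factors 4 lay below zero, 1 with an unadjusted limma p under 0.05 and 0 called. The 95% confidence intervals of the 38 genes lay between -0.28 and 0.27.

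The difference in the effect of BACHD between the ages was tested as an age by genotype term over the 20 arrays. None of the 38 genes passed the threshold or had an unadjusted limma p under 0.05, beside 0% of all genes past the threshold and 1.76% and 0.482% with an unadjusted p under 0.05 above and below zero. Psme2 had the largest term, 0.28 (SE 0.139, adjusted p = 0.9996), followed by Psmc4 and Psme4 (0.20 each). Of the 5 core assembly factors, 1 lay below zero with an unadjusted limma p under 0.05, and 0 passed the threshold.

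**Figure D5:**
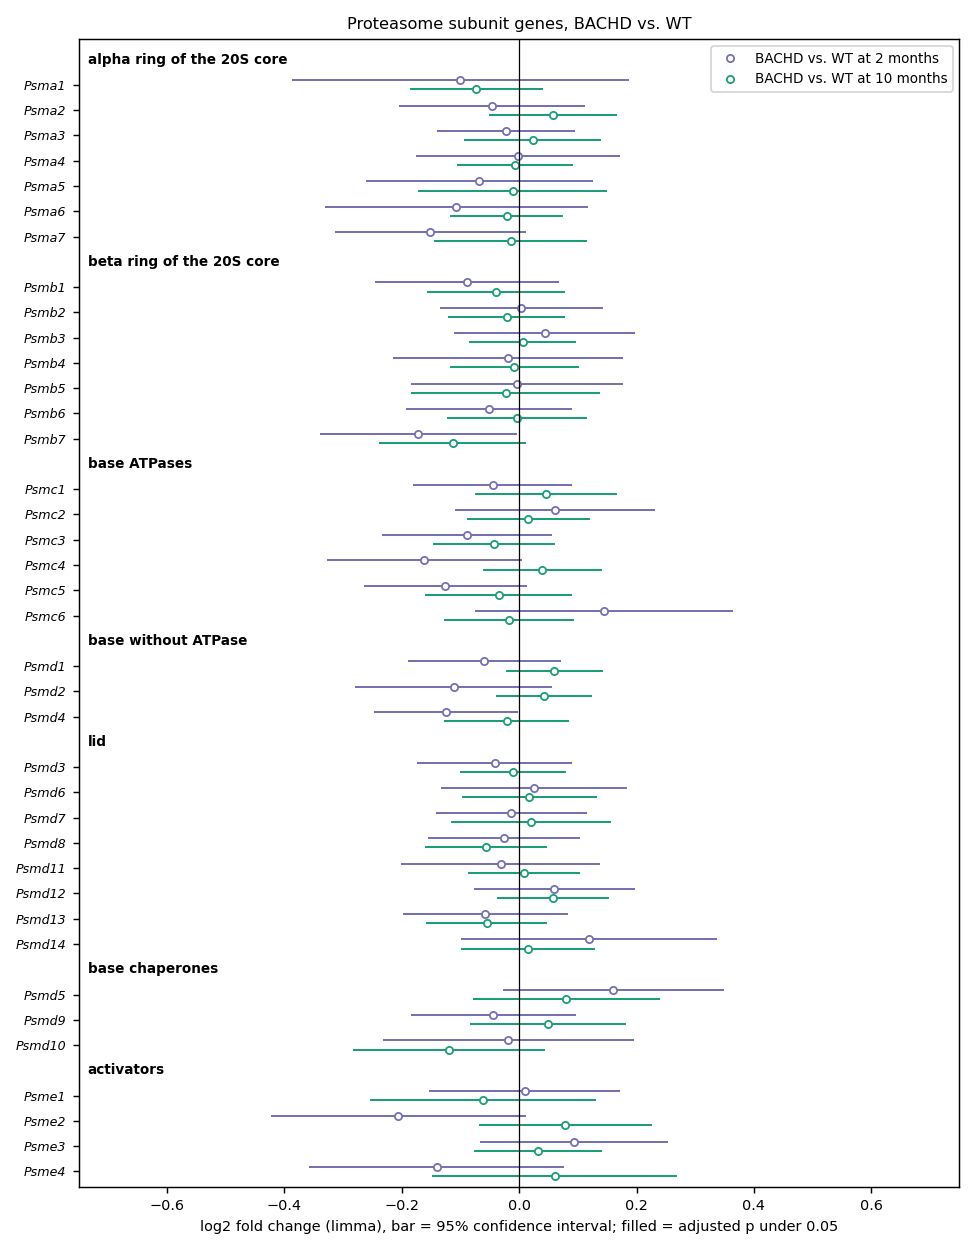
Log2 fold change (x-axis) of the 38 proteasome subunit genes in BACHD vs. WT at 2 months (purple) and 10 months (green); points are limma estimates and bars 95% confidence intervals, and no point is filled, since no adjusted p was under 0.05. The intervals at 2 months, from -0.42 to 0.36 over all genes, are wider than those at 10 months, from -0.28 to 0.27.

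The median spread between mice of a group was smaller for the proteasome genes than for all named genes, which were not matched for level. Of the 38 genes, 32 in the AAV arrays, 24 at 2 months and 31 at 10 months lay below the median of all named genes. The median residual SD of the 38 genes was 0.0678 in the AAV arrays, 0.124 at 2 months and 0.0553 at 10 months, beside 0.0960, 0.132 and 0.0826 over all named genes. In the AAV arrays the SD ran from 0.0373 (Psmb2) to 0.175 (Psme2, the gene called in 18Q), pooled over the 3 groups. Within single groups the SD of Psme2 was 0.241 in 18Q, 0.175 in 79Q and 0.0596 in WT. At 10 months it ran from 0.0160 (Psmd2) to 0.134 (Psme4), and at 2 months from 0.0703 (Psma3) to 0.249 (Psma1). The median correlation between pairs of these genes, after group means were taken out, was 0.0932, 0.386 and 0.203 in the 3 sets of arrays. Between pairs from 3988 of all named genes it was 0.0190, 0.177 and 0.0306. Those genes were not matched for level and members were not removed from them. The values are given as a description over 18, 12 and 8 arrays. At 2 months, where the pairs correlated most, the correlation was 0.577 within the lid, 0.456 within the alpha ring, 0.387 within the ATPases and 0.255 within the beta ring. The order differed in the other sets, with the ATPases highest in the AAV arrays (0.264, lid 0.151) and the beta ring highest at 10 months (0.481, lid 0.186). After group means were taken out, the mean of the 38 genes correlated with the mean of the neuron markers at 0.643 at 2 months, 0.58 at 10 months and -0.374 in the AAV arrays. In the same order, the correlation with the mean of the thalamic markers was -0.0349, 0.565 and -0.45. With the mean of the oligodendrocyte markers it was 0.0423, -0.0912 and -0.416.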

How the data were processed

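Per the labels and methods, the authors summarised Affymetrix Mouse Gene ST 1.0 arrays by RMA with affy 1.70.0 in R 4.1.1, and deposited log2 values for 34760 probe sets, 38 arrays in all. The platform table gave 21640 probe sets a single symbol, 1321 several and left 11799 unlisted. Identical values between arrays numbered 0 to 9 in the AAV set, 0 to 17 at 2 months and 5 to 22 at 10 months. Across the 3 sets there were 0, as in some pairs within the AAV and 2 months sets. The sets were taken as normalized separately on this basis, which the methods do not state. They were fitted apart except for the age by genotype term. Group means were fitted with limma 3.58.1 (R 4.3.3, lmFit, contrasts.fit and eBayes) to the 18 AAV arrays together, to each BACHD age alone and, for the age by genotype term, to the 20 arrays of both ages, with Benjamini-Hochberg adjustment over all probe sets and two-sided tests. The script was tested on simulated data. The members and lists were chosen with earlier results of these data known. Members named in a comparison were those past the threshold and, above and below zero, the 3 of lowest p, and of each companion list up to 4 that passed or the 2 with the smallest p. Genes of the companion lists without a single-symbol probe set were not used. Correlations among injected mice used 1e+05 permutations. Arrays have no read depth, and precision is set by how many there were. Each array is 1 mouse, as the labels name separate samples. Other fits are given in the closing section. Same-numbered arrays did not deviate together in every pair (r from -0.311 to 0.28), and the numbers were not taken as pairs.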

Additional observations from a re-analysis of the deposited data

Results flagged for a closer look

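The 38 genes and their mean were examined in each of the 6 groups with more than 3 mice. Of these 234 sets of values, 10 held a mouse at the end of the range that lay far from the others of its group by Dixon's criterion, which chance meets in about 1 of 20 sets. In 79Q these were Psma3 (10.451) and Psmd4 (9.778) in replicate 1, Psmd12 (9.755) in replicate 2 and Psmc5 (9.213) in replicate 4. In 18Q they were Psma7 (8.941) and Psmd1 (11.53) in replicate 1. In BACHD at 2 months it was Psma1 (11.074) in replicate 4, and in BACHD at 10 months Psma3 (10.497) in replicate 5. In WT at 2 months they were Psma7 (9.395) in replicate 1 and Psmd4 (9.84) in replicate 2.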

How the results depend on the processing

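Each comparison was refitted with 1 choice changed at a time: array scaling, moderation of the variance, a filter on dim probe sets, the probe set of a gene, the arrays in the fit, a replicate block, array weights, thalamus and oligodendrocyte scores as covariates, and each mouse left out. Of the medians over the 38 genes, that of 18Q vs. WT moved to -0.036 with each array centred on its median. The median of all named genes moved from -0.014 to -0.046 in 18Q vs. WT with the same centring. The other medians over the 38 genes moved by less than the spread between mice. Those of BACHD vs. WT at 2 months and of 79Q vs. 18Q still turned from below to above zero with this centring (0.00700 and 0.000704). So did the medians of all named genes in these comparisons (0.0227 and 0.00457). The genes past the threshold in 18Q vs. WT numbered 2 with the filter and with the mean of all probe sets of a gene (Psmd14 and Psme2), and 2 with array weights (Psme1 and Psme2, with Psme1 at 0.23, adjusted p = 0.0356). Leaving out 1 mouse gave 1 to 2 genes, and 2 only without 18Q replicate 6. In 79Q vs. WT the number was 1 with a variance trend and robust moderation and with the filter (Psmb1), and 1 with only the compared arrays, with the replicate block and with the covariates (Psme2). The same number marks no shared litter or day in the labels, and with the replicate block Psme2 had a log2 fold change of 0.399 (adjusted p = 0.0412) and Nfe2l2 of 0.36 (adjusted p = 0.103) in 79Q vs. WT. The causes were not tested. In the other comparisons the number stayed at 0 under every alternative. Values near zero changed sign. At 2 months these were Psmb8 (0.0400), Psmb9 (0.0271) and Nfe2l1 (0.0235) with centring, Psmb10 (-0.0216) and Nfe2l1 (0.00811) with array weights, and Psmb8 (0.00297), Psmb10 (-0.0204) and Nfe2l2 (-0.0189) with the covariates. Pomp at 10 months was at 0.0104 with the replicate block, and Psmg3 in 79Q vs. 18Q at -0.00397 with array weights. Leaving out 1 mouse gave ranges of -0.21 to 0.0113 for Psmb8, -0.131 to 0.0784 for Psmb9 and -0.029 to 0.0631 for Psmg3 in 79Q vs. 18Q, of -0.0347 to 0.0248 for Psmb8, -0.0468 to 0.0212 for Psmb9, -0.0301 to 0.0255 for Psmb10 and -0.0456 to 0.00474 for Nfe2l1 at 2 months, and of -0.0641 to 0.000221 for Pomp at 10 months. The number of arrays limits precision, and the median half-width of the 95% confidence interval over the 38 genes was 0.0983 for 18Q and 0.0887 for 79Q against WT, 0.0887 between the injected groups, 0.160 at 2 months, 0.111 at 10 months and 0.208 for the age by genotype term.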
